A study of Homo sapiens with 91 samples.

Results

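KLF2, KLF4, KLF6 and KLF10, IER2, IER3 and IER5, GADD45B, SGK1 and BTG1 are 10 early response genes that were followed here across 3 human cancer cell lines exposed to compounds directed at the kinase CDK9. They were taken by name from the deposited gene tables, which hold 62710 genes per line once spike-in RNAs and the Y copies of the pseudoautosomal regions are set aside, and each of the 10 symbols matched 1 Ensembl gene. No measured value entered that match, but the genes were chosen with earlier results of these data known. 5 of the 10 passed the filter on low counts in MOLT4 (KLF6, KLF10, IER2, IER3 and GADD45B), 8 in PSN1 (all but KLF2 and KLF4) and 6 in RH4 (KLF4, KLF6, KLF10, IER2, IER3 and BTG1). The others are described by their counts.

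KI-CDK9d-32 is a degrader of the CDK9 protein, KB-0742 is a CDK9 inhibitor, and DMSO is their vehicle. MOLT4 is a T-lineage acute lymphoblastic leukemia line, PSN1 a pancreatic adenocarcinoma line and RH4 a rhabdomyosarcoma line that the series' design text calls RH1. MOLT4 cells were exposed to KI-CDK9d-32, KB-0742 or DMSO for 2, 4 and 8 h, PSN1 cells to KI-CDK9d-32 or DMSO for 2 h and to all 3 agents for 4 and 8 h, and RH4 cells to all 3 agents for 4 and 8 h. The 91 RNA-seq libraries form 23 groups of 4, except that MOLT4 with DMSO at 4 h has 3 (replicates 1, 3 and 4). The labels name RPMI with 10% serum as the medium and give no doses, so the compounds are compared at matched times only.

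Gene counts per library ran between 1598283 and 3240753 in MOLT4, between 1998712 and 3227113 in PSN1 and between 1670111 and 3136769 in RH4. All 12 markers of its own lineage were detected in each line, with summed levels of 1451 to 3477 TPM (length-scaled transcript abundance) in MOLT4, 6475 to 9612 TPM in PSN1 and 1201 to 2188 TPM in RH4. Detection alone did not separate the lines. RH4 also held all 12 PSN1 markers, at 687 to 1279 TPM, and PSN1 all 12 RH4 markers, at 0 to 37.0 TPM. Apart from PSN1 markers in RH4, markers of another line summed to at most 43.9 TPM in any library. The share of reads from spike-in RNA, added in equal amount to each lysate, was 28.2% to 61.5% in the 4 MOLT4 libraries with KI-CDK9d-32 at 8 h, against 11.7% to 21.2% in the MOLT4 DMSO libraries. 3 MOLT4 libraries stood above the rest, with 61.5% (KI-CDK9d-32, 8 h, replicate 3), 49.4% (KB-0742, 4 h, replicate 3) and 39.5% (KI-CDK9d-32, 4 h, replicate 3). The share was 9.87% to 22.4% over all PSN1 libraries and 7.51% to 19.2% over all RH4 libraries. Fewer cells and less RNA per cell cannot be told apart in these lysates. Whether replicates came from separate cultures is not in the labels, and p-values reflect only how far these libraries scatter, which may be technical.

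Early response genes are switched on within minutes of a stimulus from promoters where RNA polymerase II already waits, and their mRNAs are short-lived. CDK9, the kinase of P-TEFb, releases the paused polymerase into the gene body, so mRNA levels of such genes are a common readout of CDK9 activity. KLF2, KLF4, KLF6 and KLF10 are zinc finger transcription factors, and KLF2 keeps T cells quiescent while KLF10 is induced by TGF-beta. IER2 and IER5 are related nuclear proteins, and IER3 is a stress-induced regulator of cell survival. GADD45B is a stress sensor that acts on the p38 and JNK kinase pathways, SGK1 is a kinase induced by serum and glucocorticoid, and BTG1 is an antiproliferative adaptor of the CCR4-NOT deadenylase.

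Promoter sequences of 3 of these genes are shown because IER2 and GADD45B fell at 2 h with both compounds in MOLT4, and KLF6 was higher at 8 h of KI-CDK9d-32 in MOLT4 (not on the spike-in scale) and PSN1. Each runs 5′ to 3′ on the gene's strand, from 250 bases before to 50 bases after the RefSeq transcription start (GRCh38.p14). Capitals mark matches on either strand to the CCAAT box (which reads ATTGG on the other strand), to the GC box GGGCGG (there read as CCGCCC) and to the TATA box TATAAA (there read as TTTATA).
KLF6 promoter (chr10:3785160-3785459, minus strand): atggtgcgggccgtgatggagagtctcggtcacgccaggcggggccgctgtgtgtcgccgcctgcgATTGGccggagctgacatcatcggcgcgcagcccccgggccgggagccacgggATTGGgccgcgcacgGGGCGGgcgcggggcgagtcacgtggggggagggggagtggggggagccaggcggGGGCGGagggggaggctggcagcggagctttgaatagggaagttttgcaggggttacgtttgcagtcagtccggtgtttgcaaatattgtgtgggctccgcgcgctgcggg
GADD45B promoter (chr19:2475877-2476176, plus strand): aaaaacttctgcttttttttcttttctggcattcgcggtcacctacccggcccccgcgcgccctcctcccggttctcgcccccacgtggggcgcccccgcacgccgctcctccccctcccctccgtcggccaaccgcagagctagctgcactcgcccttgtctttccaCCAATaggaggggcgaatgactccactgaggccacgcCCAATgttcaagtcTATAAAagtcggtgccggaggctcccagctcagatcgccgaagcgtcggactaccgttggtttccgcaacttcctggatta
IER2 promoter (chr19:13150161-13150460, plus strand): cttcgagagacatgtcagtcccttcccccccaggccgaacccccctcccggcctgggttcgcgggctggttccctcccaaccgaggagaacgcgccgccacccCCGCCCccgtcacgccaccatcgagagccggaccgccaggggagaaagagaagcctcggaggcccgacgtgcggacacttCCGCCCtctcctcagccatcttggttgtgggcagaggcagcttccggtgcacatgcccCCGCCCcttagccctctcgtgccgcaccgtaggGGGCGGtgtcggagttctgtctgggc
The IER2 window had 4 GC boxes, starting at positions -147, -67, -9 and 25 relative to the start site, and no TATAAA or CCAAT. The KLF6 window had 2 GC boxes, at -116 and -61, and 2 CCAAT boxes, at -184 and -131. The GADD45B window had TATAAA at -31 and CCAAT at -82 and -45, with no GC box. Of 35116 promoters of the same length, 11.5% held TATAAA, 34.6% CCAAT and 45.0% GGGCGG. The 10 promoters looked at belong to 8 of the genes, all but KLF10 and IER3. Among them, TATAAA was present for BTG1, GADD45B and SGK1, CCAAT for BTG1, GADD45B, IER5 and KLF6, and GGGCGG for BTG1, IER2, KLF2, KLF4, KLF6 and SGK1. Neither TGACGTCA, the full cAMP response element (1.85% of all promoters), nor the serum response element (1.29%) was matched in any of them. A match is a description of the letters only.

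In vehicle, IER2 was the most abundant of the 10 genes in every line, and PSN1 held more of most of them than the other lines did. IER2 had a median of 53.8 TPM in PSN1 (26.9 to 76.8, n = 12 DMSO libraries), 15.7 TPM in MOLT4 (9.16 to 20.4, n = 11) and 10.2 TPM in RH4 (4.38 to 12.4, n = 8). The PSN1 range did not overlap the other ranges, while those of MOLT4 and RH4 overlapped. IER3 had a median of 30.4 TPM in PSN1 (14.2 to 45.7), against 1.73 TPM in MOLT4 (0.389 to 2.86) and 2.09 TPM in RH4 (1.02 to 3.63), which overlapped. SGK1 had a median of 10.8 TPM in PSN1 (6.29 to 14.9), against 0.577 TPM in MOLT4 (0 to 2.82) and 0.680 TPM in RH4 (0 to 1.33). GADD45B, at a median of 14.2 TPM in PSN1 (4.13 to 18.7), overlapped with MOLT4 at 3.13 TPM (1.56 to 5.00) and not with RH4 at 1.87 TPM (0.94 to 2.56).

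The KLF genes were expressed at lower levels than IER2. KLF10 overlapped between PSN1 (median 7.73 TPM, 3.78 to 10.2) and RH4 (6.93 TPM, 5.31 to 9.87), and was lower without overlap in MOLT4 (2.47 TPM, 1.32 to 2.99). KLF6 had medians of 7.59 TPM in PSN1 (3.74 to 12.0), 3.77 TPM in MOLT4 (2.23 to 5.78) and 2.01 TPM in RH4 (1.53 to 3.27), with neighbouring ranges that overlapped. BTG1 and IER5 stayed under 1 TPM at the median in all 3 lines. KLF4 had no count in any of the 11 MOLT4 DMSO libraries, and medians of 0.570 TPM in PSN1 and 0.918 TPM in RH4. KLF2 was at 0 in all 11 MOLT4 DMSO libraries and in 9 of the 12 PSN1 ones, and had a median of 0.226 TPM in RH4.

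**Figure D1:**
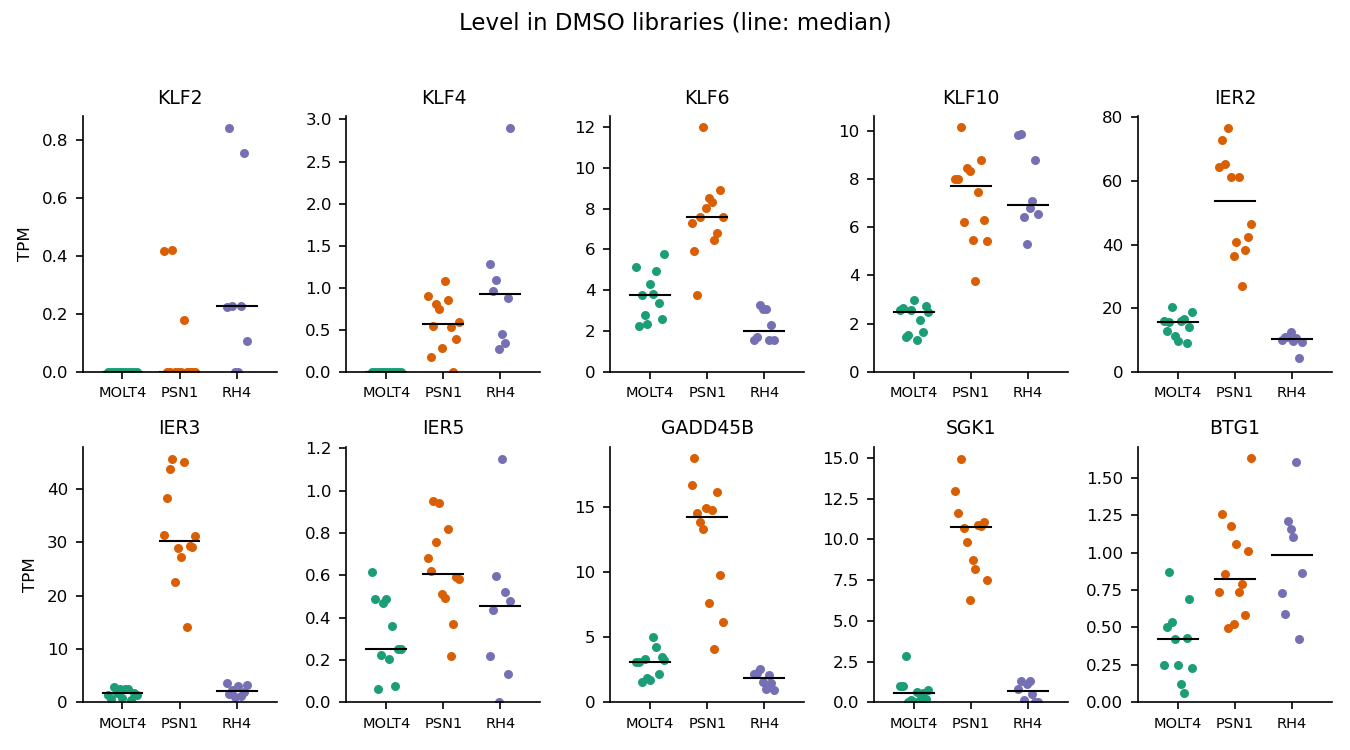
Level of each gene in every DMSO library, in TPM on a linear axis from 0 that differs between panels, with 1 point per library and a line at the median of each cell line. IER2, IER3, SGK1 and GADD45B sit highest in PSN1, and KLF2 and KLF4 sit at 0 in all MOLT4 DMSO libraries.

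Changes are given as log2 fold changes ± standard error with Benjamini-Hochberg adjusted p-values from edgeR's quasi-likelihood test, and a gene is called at an adjusted p under 0.05. TMM scaling was used, so each change is read against the bulk of genes in its library. When libraries were scaled to the spike-ins, the median change of all genes against DMSO moved to -0.41, -1.13 and -2.99 with KI-CDK9d-32 in MOLT4 at 2, 4 and 8 h, and to -0.86, -1.38 and -1.41 with KB-0742. It was -0.29, -0.61 and -1.01 with KI-CDK9d-32 in PSN1 at those times and -0.92 and -0.94 with KB-0742 at 4 and 8 h. In RH4 it was -0.36 and -0.92 for KI-CDK9d-32 and -1.12 and -1.66 for KB-0742. A gene that is higher below is therefore higher than most genes of its library, and the spike-in value stands beside a called gene where its direction differs. A gene given as not called was not called under TMM scaling, and several of these were called lower on the spike-in scale.

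Over 15 comparisons with DMSO, 94 tests of these genes gave 9 higher and 18 lower calls, and 67 were not called. Each comparison called between 0.481% and 49.6% of all genes, so the pooled count is a tally only. In MOLT4 at 2 h, IER2 and GADD45B were the 2 of 5 tested genes called with KI-CDK9d-32, both lower (9.98% of all genes called), and the same 2 were called lower with KB-0742 (26.1% of all genes). At 4 h, IER2 alone was called lower with KI-CDK9d-32 (32.6% of all genes) and with KB-0742 (35.8% of all genes), a share no larger than that of all genes. At 8 h, KLF6 and IER3 were higher with KI-CDK9d-32 (49.6% of all genes called), while KLF6 was higher and KLF10, IER2 and GADD45B were lower with KB-0742 (49.2% of all genes). Both higher calls with KI-CDK9d-32 and that of KLF6 with KB-0742 were negative on the spike-in scale. The median log2 change of the 5 genes with KI-CDK9d-32 was -1.60, -1.49 and 1.13 at 2, 4 and 8 h, beside medians of -0.02, -0.11 and -0.18 over all genes. With KB-0742 it was -1.56, -1.07 and -1.98, beside -0.05, -0.04 and -0.10. These medians are under TMM scaling. On the spike-in scale all 5 genes were negative at 8 h of KI-CDK9d-32, between -3.13 (IER2) and -0.82 (IER3), where the median over all genes was -2.99. Both compounds are compared with the same DMSO libraries.

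In PSN1 at 2 h, GADD45B and SGK1 were lower with KI-CDK9d-32, 2 of 8 tested genes where 0.481% of all genes were called. At 4 h, GADD45B was lower with KI-CDK9d-32 (7.36% of all genes called), and SGK1 was higher and IER3 lower with KB-0742 (23.9% of all genes). At 8 h, KLF6 and IER2 were higher and SGK1 and BTG1 lower with KI-CDK9d-32 (20.7% of all genes), and KLF6 and BTG1 were lower with KB-0742 (30.2% of all genes). In RH4, no gene of the 6 tested was called with KI-CDK9d-32 at 4 h (5.36% of all genes called), where 1 had an unadjusted p under 0.05 and DESeq2 called 0. KLF10 was higher and IER2 lower with KB-0742 at 4 h (31.6% of all genes). At 8 h, KLF10 was higher with KI-CDK9d-32 (15.2% of all genes) and with KB-0742 (45.4% of all genes). The spike-in value of KLF10 with KB-0742 was negative and called lower.

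**Figure D2:**
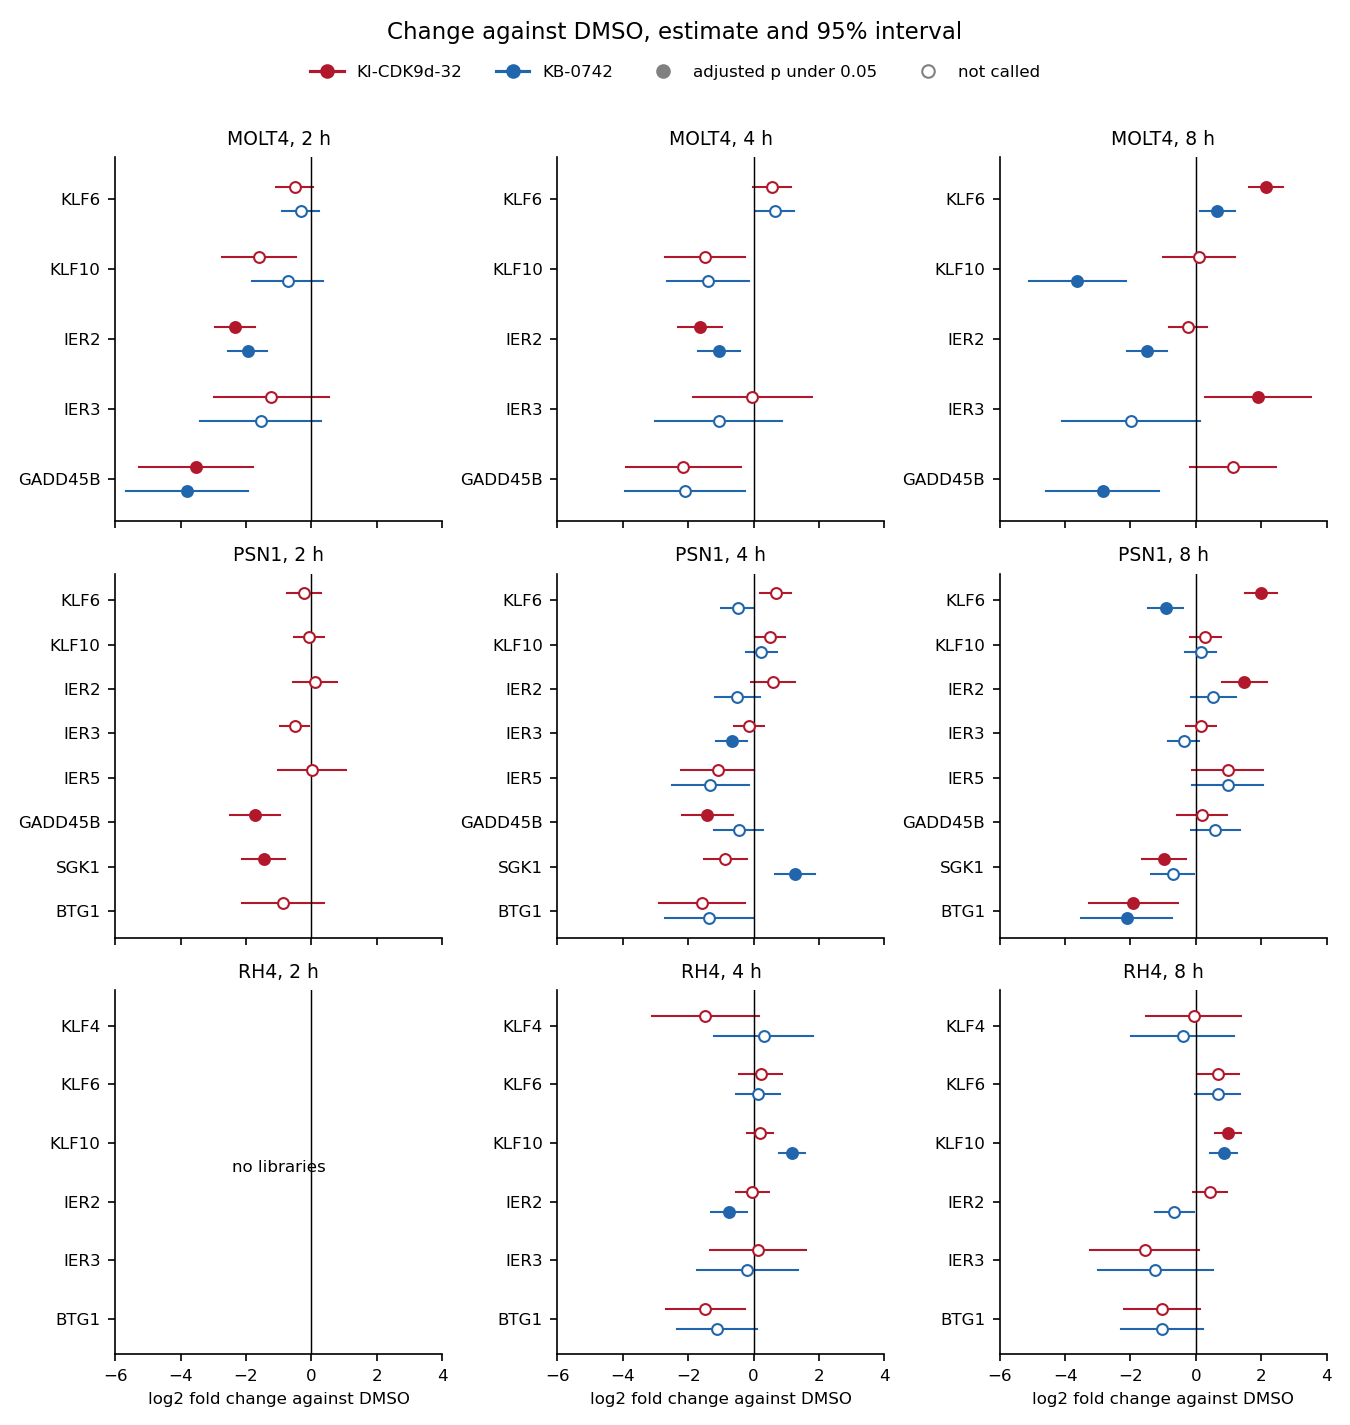
Log2 fold change against DMSO of each tested gene, with its 95% interval, by line and time under TMM scaling, KI-CDK9d-32 above KB-0742; filled points are called at an adjusted p under 0.05. In MOLT4 most points lie left of 0 at 2 and 4 h, and KLF6 lies right of 0 at 8 h with both compounds, where spike-in scaling turns both to the left.

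IER2, a nuclear early response protein (chr19:13150415-13154908, plus strand, GRCh38), fell in MOLT4 within 2 h with both compounds. At 2 h it had 2.17, 6.88, 4.78 and 10.4 CPM (counts scaled to TMM library size) with KI-CDK9d-32 and 6.78, 6.18, 5.97 and 13.1 CPM with KB-0742, against 30.5, 24.7, 30.2 and 38.7 CPM with DMSO. Every treated library was below every DMSO library. The change was -2.34 ± 0.31 with KI-CDK9d-32 (adjusted p = 2.7e-07, edgeR) and -1.96 ± 0.30 with KB-0742 (adjusted p = 1.3e-06, edgeR).

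At 4 h in MOLT4 IER2 stayed low, with 4.81, 9.90, 10.5 and 4.87 CPM with KI-CDK9d-32 and 7.15, 11.6, 16.0 and 10.6 CPM with KB-0742, against 21.4, 18.4 and 31.0 CPM with DMSO. Again no treated library reached the DMSO range. The fall was -1.64 ± 0.33 with KI-CDK9d-32 (adjusted p = 9.6e-05, edgeR) and -1.06 ± 0.32 with KB-0742 (adjusted p = 0.0079, edgeR). Without DMSO replicate 4 the KB-0742 call was lost (adjusted p = 0.0794). Without the libraries of high spike-in share, the changes were -1.82 for KI-CDK9d-32 and -1.25 for KB-0742, both called.

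At 8 h in MOLT4 the compounds differed in IER2 under TMM scaling and not on the spike-in scale. IER2 had 22.9, 26.9, 24.9 and 18.7 CPM with KI-CDK9d-32 and 10.8, 6.81, 8.99 and 11.8 CPM with KB-0742, against 29.7, 17.1, 28.5 and 35.0 CPM with DMSO. The KI-CDK9d-32 libraries lay within the DMSO range and the KB-0742 libraries below it. The change was -0.24 ± 0.29 with KI-CDK9d-32 (not called, adjusted p = 0.51, edgeR), where spike-in scaling gave -3.13, called lower (adjusted p = 5.8e-08, edgeR). With KB-0742 it was -1.50 ± 0.30 (adjusted p = 4.9e-05, edgeR), and -2.86 on the spike-in scale.

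In PSN1, where IER2 is most abundant, it was not called at 2 h. It had 167, 157, 188 and 160 CPM with KI-CDK9d-32, against 147, 163, 141 and 176 CPM with DMSO, which overlapped (0.10 ± 0.32). At 8 h it was higher with KI-CDK9d-32, at 148, 177, 259 and 393 CPM, than with DMSO, at 67.4, 83.1, 90.2 and 106 CPM, with no overlap. The change was 1.49 ± 0.33 (adjusted p = 0.0022, edgeR), and 0.45 and not called on the spike-in scale. KB-0742 gave 101, 99.1, 124 and 183 CPM at 8 h, which overlapped the DMSO range (0.54 ± 0.34, not called), and spike-in scaling turned the direction (-0.45). At 4 h the changes were 0.58 ± 0.33 for KI-CDK9d-32 and -0.50 ± 0.34 for KB-0742, neither called. On the spike-in scale the KB-0742 value at 4 h was -1.32 and called lower (adjusted p = 0.0019, edgeR).

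RH4 showed an IER2 call in 1 of its 4 comparisons with DMSO under TMM scaling. At 4 h IER2 had 6.89, 12.0, 12.8 and 18.8 CPM with KB-0742, against 18.6, 19.5, 22.8 and 25.4 CPM with DMSO, with 1 library in the overlap (-0.76 ± 0.27, adjusted p = 0.027, edgeR). That call was lost without any one of DMSO replicates 3 and 4 and KB-0742 replicates 1 and 2 (adjusted p up to 0.130). With KI-CDK9d-32 the changes were -0.04 ± 0.25 at 4 h and 0.44 ± 0.25 at 8 h, and with KB-0742 -0.66 ± 0.29 at 8 h, none of them called. The value of 0.44 turned to -0.40 on the spike-in scale. On that scale the KB-0742 value at 8 h was -2.21 and called lower (adjusted p = 1.9e-06, edgeR). IER2 overlaps an annotated antisense gene (AC011446.2), and these libraries keep no strand, so reads of the pair cannot be told apart.

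IER3, which modulates survival under stress (chr6:30743199-30744554, minus strand), was called in 2 comparisons with DMSO under TMM scaling. In MOLT4 at 8 h it had 9.83, 4.27, 2.77 and 5.26 CPM with KI-CDK9d-32, against 2.45, 0.312, 1.76 and 1.29 CPM with DMSO, with no overlap and few counts. The change was 1.90 ± 0.81 (adjusted p = 0.048, edgeR), lost without any one of DMSO replicates 2, 3 and 4 and KI-CDK9d-32 replicate 4 (adjusted p up to 0.134) and with no filter on low counts (adjusted p = 0.093), and it was -0.82 on the spike-in scale. IER3 passed the filter in 7 of the 8 fits that left out 1 library. In PSN1 at 4 h it had 15.4, 27.2, 24.8 and 31.2 CPM with KB-0742, against 26.7, 36.9, 36.1 and 58.0 CPM with DMSO, in ranges that overlapped. That fall of -0.68 ± 0.23 (adjusted p = 0.030, edgeR) was lost without DMSO replicate 4 or KB-0742 replicates 1 or 3 (adjusted p up to 0.218). On the spike-in scale IER3 was called lower with KB-0742 at 8 h in MOLT4 (-3.27), PSN1 (-1.33) and RH4 (-2.76) (adjusted p = 0.012, 0.00072 and 0.0041, edgeR). IER3 overlaps its antisense gene IER3-AS1.

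IER5, a nuclear protein related to IER2 (chr1:181088712-181092899, plus strand), was not called under TMM scaling in PSN1, the only line where it passed the filter. Its changes there were 0.01 ± 0.51, -1.10 ± 0.55 and 0.97 ± 0.54 at 2, 4 and 8 h of KI-CDK9d-32 and -1.33 ± 0.59 and 0.97 ± 0.54 with KB-0742 at 4 and 8 h, and the KI-CDK9d-32 value at 8 h turned to -0.08 on the spike-in scale. On that scale the KB-0742 value at 4 h was -2.19 and called lower (adjusted p = 0.0093, edgeR). In MOLT4 its counts were sparse and lower with both compounds at the early times. At 2 h the 4 libraries of a group summed to 3 counts for KI-CDK9d-32 and 1 for KB-0742, against 20 with DMSO. Scaled for depth, the ratios to DMSO were 0.169 (95% counting interval 0.0322 to 0.571) and 0.0669 (0.00161 to 0.418). At 4 h there were 2 counts with KI-CDK9d-32 (ratio 0.145, 0.0162 to 0.610) and 0 with KB-0742, against 17 over the 3 DMSO libraries. Taking 3 counts per group as the lowest level that can be read, and the DMSO sum as exact, the KB-0742 level was at least 3.76-fold lower. In RH4 the sums were 10 to 31 counts per group. These intervals cover counting error only, since reads carried no molecular identifiers, and the floor leaves out the counting error of the DMSO sum.

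KLF6, a zinc finger factor and reported tumour suppressor (chr10:3775996-3785281, minus strand), rose at 8 h of the degrader in 2 of the 3 lines relative to other genes, in MOLT4 with a negative value on the spike-in scale. In MOLT4 at 8 h it had 70.8, 72.6, 95.9 and 42.1 CPM with KI-CDK9d-32 and 32.1, 31.4, 12.6 and 23.2 CPM with KB-0742, against 17.4, 14.0, 11.3 and 19.7 CPM with DMSO. The KI-CDK9d-32 libraries were all above every DMSO library, and the KB-0742 ones overlapped them. KLF6 rose by 2.15 ± 0.26 with KI-CDK9d-32 (adjusted p = 9.4e-10, edgeR), while spike-in scaling gave -0.83 and no call. Without the KI-CDK9d-32 library of 61.5% spike-in reads the rise was 2.01. With KB-0742 it was 0.66 ± 0.27 (adjusted p = 0.037, edgeR; spike-in -0.73), lost without any one of DMSO replicates 2 and 3 and KB-0742 replicates 1 and 2 (adjusted p up to 0.150).

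In PSN1 at 8 h the 2 compounds moved KLF6 in opposite directions. It had 135, 95.5, 117 and 174 CPM with KI-CDK9d-32 and 21.1, 20.6, 19.3 and 6.80 CPM with KB-0742, against 30.3, 30.5, 37.9 and 31.9 CPM with DMSO. The 3 groups did not overlap. The change was 1.99 ± 0.24 with KI-CDK9d-32 (adjusted p = 1.8e-07, edgeR), still 0.99 and called on the spike-in scale (adjusted p = 0.017), and -0.93 ± 0.27 with KB-0742 (adjusted p = 0.0072, edgeR; spike-in -1.75).

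At 4 h in PSN1, KLF6 had 76.7, 66.5, 66.3 and 66.1 CPM with KI-CDK9d-32 and 49.1, 30.9, 18.9 and 25.2 CPM with KB-0742, against 55.7, 41.2, 37.6 and 38.4 CPM with DMSO. The KI-CDK9d-32 libraries lay above the rest, but the change of 0.67 ± 0.23 was not called (adjusted p = 0.071, edgeR; 0.026 with the replicate number as a block), nor was -0.49 ± 0.25 with KB-0742. At 2 h KLF6 was not called with either compound in MOLT4 (-0.51 ± 0.28 for KI-CDK9d-32 and -0.33 ± 0.28 for KB-0742) or with KI-CDK9d-32 in PSN1 (-0.22 ± 0.25). It was not called in RH4 under TMM scaling, where the 8 h changes of 0.68 ± 0.32 for KI-CDK9d-32 and 0.67 ± 0.34 for KB-0742 turned to -0.21 and -0.89 on the spike-in scale. On that scale KLF6 was called lower with KB-0742 in RH4 at 4 h (-1.10) and 8 h (adjusted p = 0.016 and 0.038, edgeR).

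KLF10, a TGF-beta-induced factor, was lower in MOLT4 with KB-0742 at 8 h and higher in RH4 under TMM scaling. On the spike-in scale it was not called higher in RH4, and was called lower there with KB-0742 at 8 h. In MOLT4 at 8 h it had 10.5, 4.27, 5.53 and 5.26 CPM with KI-CDK9d-32 and 0, 0, 0.899 and 0.760 CPM with KB-0742, against 5.45, 4.36, 7.75 and 6.47 CPM with DMSO. The KB-0742 libraries were far below the others (-3.63 ± 0.74, adjusted p = 5.45e-05, edgeR). The KI-CDK9d-32 libraries overlapped those of DMSO (0.09 ± 0.54, not called), while on the spike-in scale KLF10 was called lower (-2.75, adjusted p = 0.00022, edgeR). At 2 and 4 h the changes were -1.60 ± 0.57 and -1.49 ± 0.61 for KI-CDK9d-32 and -0.73 ± 0.54 and -1.39 ± 0.62 for KB-0742, none of them called.

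In RH4 at 4 h KLF10 had 31.4, 19.9, 23.5 and 25.7 CPM with KI-CDK9d-32 and 55.2, 54.5, 52.0 and 34.2 CPM with KB-0742, against 26.0, 25.3, 19.5 and 15.5 CPM with DMSO. All KB-0742 libraries were above all others (1.16 ± 0.20 against DMSO, adjusted p = 1.2e-05, edgeR; spike-in 0.14, not called). At 8 h it had 39.1, 45.7, 34.0 and 37.8 CPM with KI-CDK9d-32 and 33.8, 37.0, 41.8 and 30.7 CPM with KB-0742, against 17.2, 18.6, 25.8 and 18.3 CPM with DMSO. Both compounds were above DMSO without overlap, by 0.97 ± 0.20 (adjusted p = 0.00039, edgeR, with a spike-in value of 0.05) and 0.85 ± 0.20 (adjusted p = 0.00078, edgeR). The KB-0742 value turned to -0.75 on the spike-in scale, where it was called lower (adjusted p = 0.026, edgeR). In PSN1 KLF10 was called in none of its 5 comparisons with DMSO, with changes of -0.08 to 0.50.

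KLF4 (chr9:107484852-107490482, minus strand) and KLF2 (chr19:16324817-16327874, plus strand), both known as factors of quiescent endothelium, were near or below detection. KLF4 was tested in RH4 only and was not called there, with 4 and 8 h changes of -1.48 ± 0.81 and -0.07 ± 0.72 for KI-CDK9d-32, against DMSO, and of 0.31 ± 0.75 (spike-in -0.62) and -0.41 ± 0.78 for KB-0742. In PSN1 at 4 h, KLF4 counts were 3, 4, 6 and 2 for KI-CDK9d-32 and 0, 1, 0 and 0 for KB-0742, against 7, 3, 12 and 10 with DMSO. The KB-0742 sum of 1 count was 0.0477 of the DMSO level (95% counting interval 0.00117 to 0.285), and every KB-0742 library was below every DMSO library. In MOLT4, KLF4 had counts in 3 of 35 libraries, which were 2 for KI-CDK9d-32 and 1 for KB-0742, all at 8 h. KLF2 had 1 count in 1 of the 35 MOLT4 libraries, and DMSO sums of 10 counts over 12 PSN1 libraries and 9 over 8 RH4 libraries.

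GADD45B, which couples stress signals to p38 and JNK (chr19:2476122-2478259, plus strand), was among the first to fall. In MOLT4 at 2 h it had 0, 0, 1 and 2 counts for KI-CDK9d-32 and 0, 1, 0 and 1 for KB-0742, against 13, 13, 7 and 13 with DMSO. The treated libraries did not overlap with DMSO. The fitted changes were -3.53 ± 0.87 with KI-CDK9d-32 (adjusted p = 0.0044, edgeR) and -3.81 ± 0.93 with KB-0742 (adjusted p = 0.0014, edgeR). The summed counts gave ratios to DMSO of 0.0736 (95% counting interval 0.0147 to 0.229) and 0.0582 (0.00684 to 0.222). At 4 h both were below DMSO without overlap but not called (-2.16 ± 0.88, adjusted p = 0.053, and -2.10 ± 0.92, adjusted p = 0.067, edgeR).

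At 8 h in MOLT4 GADD45B counts were 15, 22, 2 and 9 for KI-CDK9d-32 and 0, 0, 3 and 1 for KB-0742, against 17, 8, 12 and 8 with DMSO. The KI-CDK9d-32 libraries spread across the DMSO range (1.13 ± 0.66, not called; spike-in -1.50), and the KB-0742 libraries stayed below it (-2.85 ± 0.86, adjusted p = 0.0048, edgeR).

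In PSN1 GADD45B fell with the degrader at 2 and 4 h. At 2 h it had 9.12, 5.50, 4.77 and 3.39 CPM with KI-CDK9d-32, against 22.0, 22.9, 16.7 and 15.2 CPM with DMSO, with no overlap (-1.73 ± 0.38, adjusted p = 0.015, edgeR). At 4 h it had 6.15, 7.10, 7.21 and 3.76 CPM with KI-CDK9d-32 and 12.9, 18.1, 9.66 and 7.27 CPM with KB-0742, against 17.7, 20.4, 10.9 and 16.0 CPM with DMSO. The KI-CDK9d-32 libraries were below all others (-1.41 ± 0.38 against DMSO, adjusted p = 0.017, edgeR), and the KB-0742 ones overlapped DMSO (-0.45 ± 0.37, not called). The 2 h call was lost without any one of DMSO replicates 1 and 2 and KI-CDK9d-32 replicates 2, 3 and 4 (adjusted p up to 0.101), and the 4 h call without DMSO replicate 2 or KI-CDK9d-32 replicate 4 (adjusted p up to 0.0715). At 8 h the changes were 0.19 ± 0.38 and 0.60 ± 0.37 with KI-CDK9d-32 and KB-0742, neither called, and both negative on the spike-in scale (-0.79 and -0.24).

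In RH4, where GADD45B did not pass the filter, its 4 h counts were 0, 1, 0 and 0 for KI-CDK9d-32 and 8, 7, 4 and 1 for KB-0742, against 5, 9, 4 and 10 with DMSO. The degrader libraries were below every DMSO library. Their sum of 1 count was 0.0340 of the DMSO level (95% counting interval 0.00083 to 0.205) and 0.0326 of the KB-0742 level (0.000786 to 0.204). With no filter on low counts, GADD45B was called lower than DMSO (adjusted p = 0.017) and than KB-0742 (adjusted p = 0.0044) by edgeR. At 8 h the sums were 12 counts for KI-CDK9d-32 and 19 for KB-0742, against 18 with DMSO.

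SGK1, the serum- and glucocorticoid-induced kinase (chr6:134169246-134318112, minus strand), was lower with the degrader at 2 and 8 h and higher with the inhibitor at 4 h in PSN1. At 2 h it had 17.9, 6.42, 9.55 and 11.2 CPM with KI-CDK9d-32, against 29.6, 29.1, 36.6 and 29.1 CPM with DMSO, with no overlap. The change was -1.46 ± 0.32 (adjusted p = 0.017, edgeR), lost without any one of DMSO replicate 3 and KI-CDK9d-32 replicates 2, 3 and 4 (adjusted p up to 0.115). At 4 h it had 19.2, 8.06, 8.65 and 11.6 CPM with KI-CDK9d-32 and 55.0, 74.7, 44.9 and 34.2 CPM with KB-0742, against 25.0, 16.5, 23.7 and 21.6 CPM with DMSO. All KB-0742 libraries were above all DMSO libraries (1.26 ± 0.31, adjusted p = 0.0023, edgeR; 0.50 and not called on the spike-in scale). With KI-CDK9d-32 the change was -0.87 ± 0.33 (not called, adjusted p = 0.095, edgeR; 0.027 with the replicate number as a block).

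By 8 h SGK1 was below DMSO with the degrader. It had 16.2, 11.2, 11.8 and 13.0 CPM with KI-CDK9d-32 and 26.3, 19.7, 10.7 and 4.71 CPM with KB-0742, against 31.4, 27.1, 26.6 and 17.3 CPM with DMSO. The KI-CDK9d-32 libraries did not overlap with DMSO (-0.97 ± 0.33, adjusted p = 0.032, edgeR), a call lost in 6 of the 8 fits that left out 1 library (adjusted p up to 0.0886), and KB-0742 was not called (-0.71 ± 0.32, adjusted p = 0.093; 0.032 with the replicate block). In MOLT4, SGK1 had 0 counts in all 4 KI-CDK9d-32 libraries at 2 h, against 6, 0, 5 and 18 with DMSO, where 1 library gave most of the counts and another none. In RH4 at 4 h it had 1 count for KI-CDK9d-32 and 5 for KB-0742 over 4 libraries each, against 19 with DMSO. The degrader level was 0.05 of the DMSO level (95% counting interval 0.0012 to 0.315). 4 small annotated genes lie within SGK1, whose reads cannot be set apart.

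BTG1, an antiproliferative protein (chr12:92140278-92145897, minus strand), was lower with both compounds in PSN1 at 8 h. It had 0.832, 2.23, 0.907 and 1.50 CPM with KI-CDK9d-32 and 0.431, 2.47, 1.72 and 0 CPM with KB-0742, against 4.60, 2.97, 5.03 and 8.53 CPM with DMSO. No treated library reached the DMSO range. The changes were -1.92 ± 0.68 (adjusted p = 0.038, edgeR) and -2.12 ± 0.69 (adjusted p = 0.017, edgeR), lost in 5 and in 3 of the fits that left out 1 library (adjusted p up to 0.132 and 0.0722). In RH4 the changes were between -1.49 and -1.04 and not called. With KB-0742 they were called lower on the spike-in scale, at -2.27 at 4 h and -2.56 at 8 h (adjusted p = 0.0042 and 0.00085, edgeR). In MOLT4 at 2 h BTG1 summed to 9 counts for KI-CDK9d-32 and 5 for KB-0742, against 35 with DMSO, which are ratios of 0.290 (95% counting interval 0.123 to 0.616) and 0.191 (0.0584 to 0.490). BTG1 overlaps LINC01619 and the antisense gene AC025164.1.

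**Figure D3:**
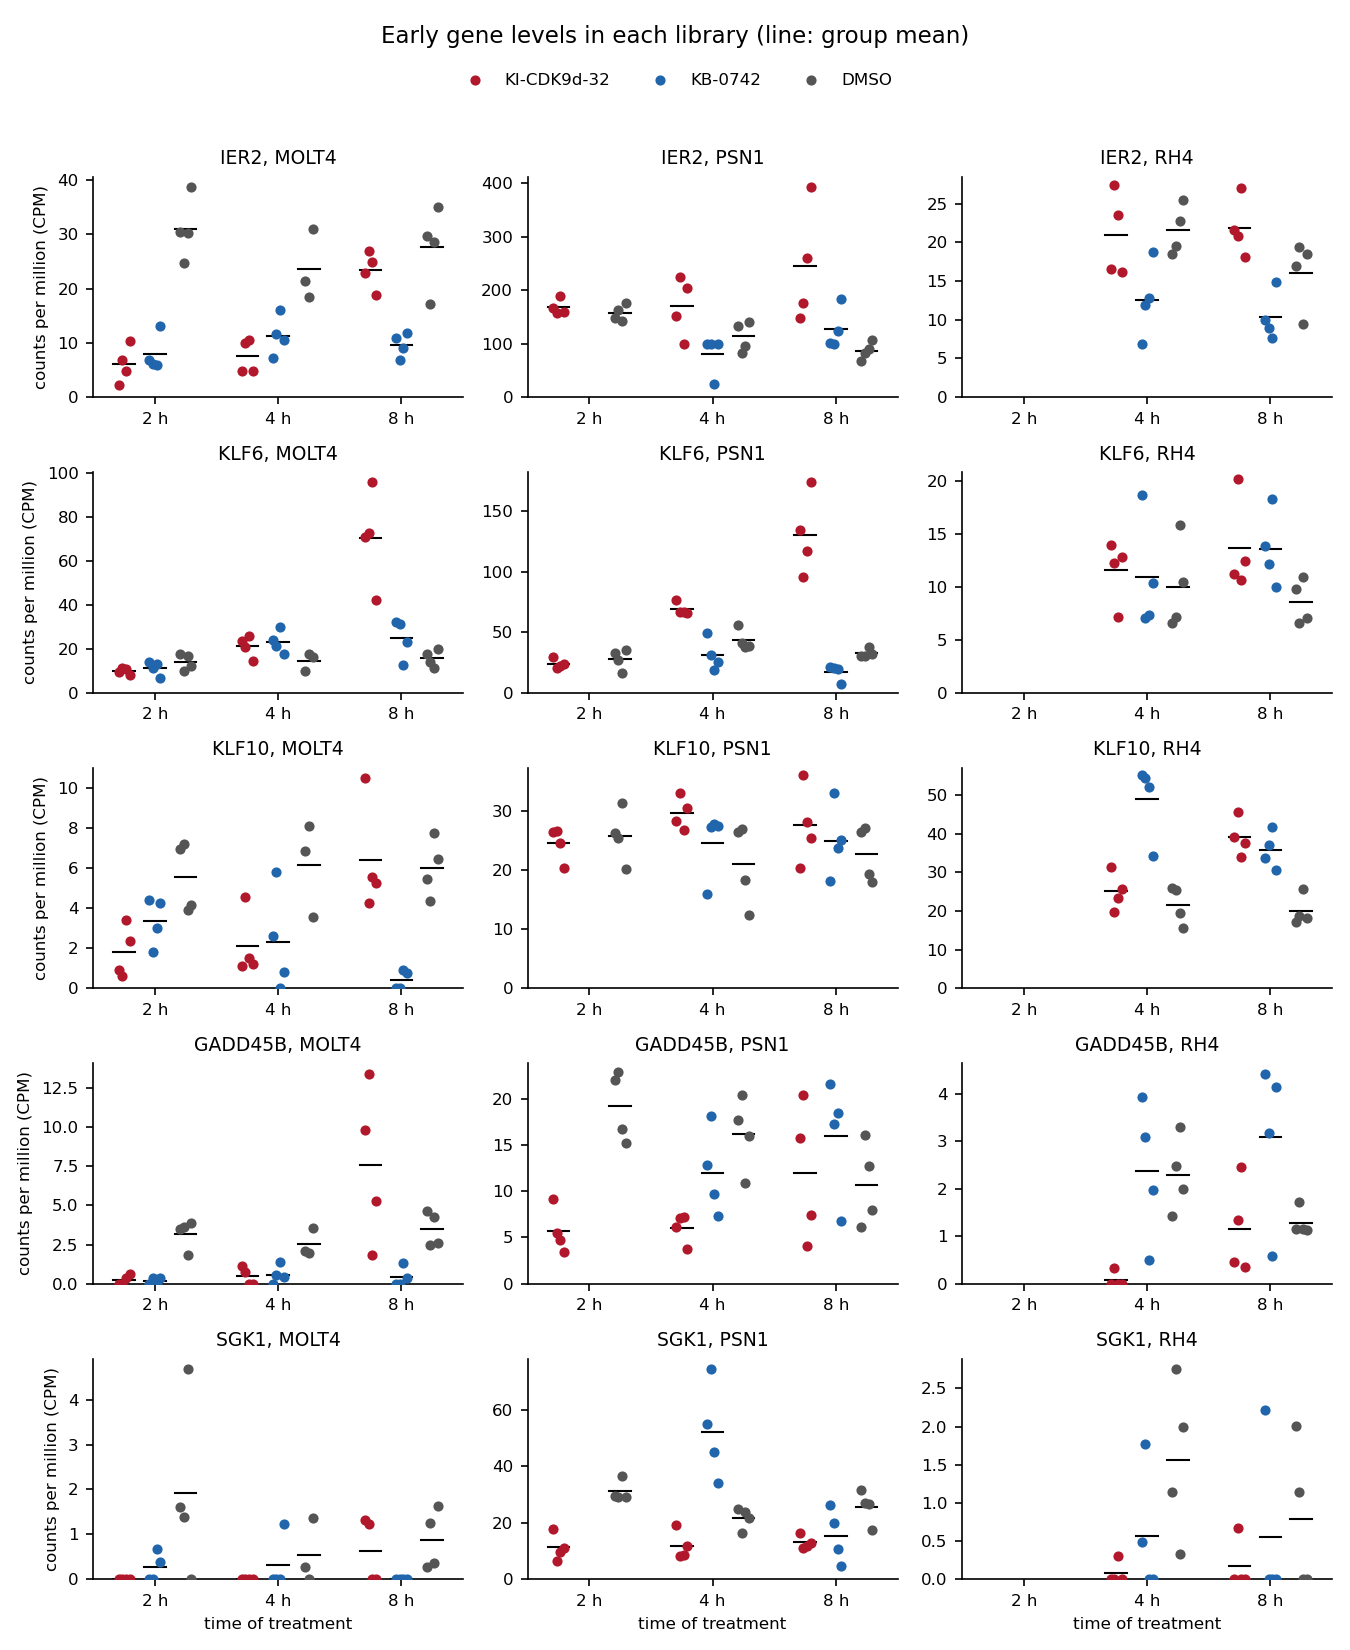
CPM of 5 genes in every library, by line and time, KI-CDK9d-32 left of KB-0742 left of DMSO, with 1 point per library, a line at each group mean and a linear axis from 0 that differs between panels (no 2 h libraries of RH4, and none with KB-0742 at 2 h in PSN1). IER2 in MOLT4 lies below DMSO with both compounds at 2 and 4 h, KLF6 in PSN1 reaches 95.5 to 174 CPM with KI-CDK9d-32 at 8 h, and SGK1 in PSN1 reaches 34.2 to 74.7 CPM with KB-0742 at 4 h.

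Set directly against each other, the compounds gave more higher than lower calls of these genes for the degrader. Of these calls, KLF6 and IER2 in MOLT4 at 8 h turned on the spike-in scale. Over 7 comparisons and 43 tests, 11 were higher and 2 lower with KI-CDK9d-32 than with KB-0742, and 30 were not called. These comparisons called 17.4% to 58.5% of all genes, so the pooled count is a tally only. 5 of the higher calls were in MOLT4 at 8 h, where 3374 of all genes were called higher and 3449 lower. In MOLT4 no gene was called at 2 h (18.3% of all genes called) or at 4 h (35.7% of all genes), where none had an unadjusted p under 0.05 and DESeq2 called 0. The difference in IER2 was -0.38 at 2 h (95% interval -1.07 to 0.30) and -0.57 at 4 h (-1.27 to 0.13). That in GADD45B was 0.27 at 2 h (-2.12 to 2.67) and -0.05 at 4 h (-2.41 to 2.30).

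At 8 h in MOLT4 the genes that passed the filter were called higher with KI-CDK9d-32 than with KB-0742, where 28.9% of all genes were called higher and 58.5% in either direction. Among the members KLF10 differed by 3.72 ± 0.76 (adjusted p = 4.5e-05, edgeR), GADD45B by 3.99 ± 0.85 (adjusted p = 8.25e-05), IER3 by 3.88 ± 1.01 (adjusted p = 0.00098), KLF6 by 1.50 ± 0.26 (adjusted p = 2.2e-06) and IER2 by 1.26 ± 0.32 (adjusted p = 0.00079). The KB-0742 libraries summed to 3 counts for IER3 and 4 for GADD45B, which passed the filter through other groups, and with only the 2 compounds in the fit, KLF6 and IER2 alone were tested and both were called. On the spike-in scale KLF10 (2.16) and GADD45B (2.60) remained called, IER3 (2.45) was not, and KLF6 and IER2 turned to -0.10 and -0.27. The median change of all genes between the compounds moved to -1.46 there.

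In PSN1 KLF6 was higher with KI-CDK9d-32 than with KB-0742 by 1.16 ± 0.25 at 4 h (adjusted p = 0.00066, edgeR; 17.4% of all genes called) and by 2.92 ± 0.26 at 8 h (adjusted p = 7.6e-11, edgeR; 24.8% of all genes). Both were without overlap and remained on the spike-in scale, at 1.40 and 2.75. SGK1 was lower with KI-CDK9d-32 by -2.13 ± 0.32 at 4 h (adjusted p = 6.5e-06, edgeR; spike-in -1.97), and differed by -0.26 at 8 h (95% interval -0.95 to 0.44). With the replicate number as a block, the 4 h differences in IER3 (0.57, adjusted p = 0.022 against 0.11 without it) and GADD45B (-0.94, 0.0399 against 0.096) were called too. IER2 was higher by 1.08 ± 0.34 at 4 h and 0.95 ± 0.33 at 8 h (adjusted p = 0.028 and 0.037, edgeR), with ranges that overlapped. Its 4 h call was lost without KB-0742 replicate 3 or KI-CDK9d-32 replicates 2 or 4 (adjusted p up to 0.0923), and its 8 h call in 5 of the fits that left out 1 library (adjusted p up to 0.192).

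In RH4 IER2 was higher with KI-CDK9d-32 than with KB-0742 by 1.10 ± 0.29 at 8 h (adjusted p = 0.0024, edgeR; 38.4% of all genes called), at 21.6, 20.8, 27.1 and 18.2 CPM with KI-CDK9d-32, against 9.96, 8.92, 7.66 and 14.9 CPM with KB-0742. These groups did not overlap. At 4 h the difference was 0.73 ± 0.27 (adjusted p = 0.041, edgeR; 25.8% of all genes called), lost in 5 of the fits that left out 1 library (adjusted p up to 0.172). KLF10 was lower with KI-CDK9d-32 by -0.96 ± 0.19 at 4 h (adjusted p = 0.00023, edgeR; spike-in -0.30, not called), and differed by 0.12 at 8 h (95% interval -0.28 to 0.53).

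**Figure D4:**
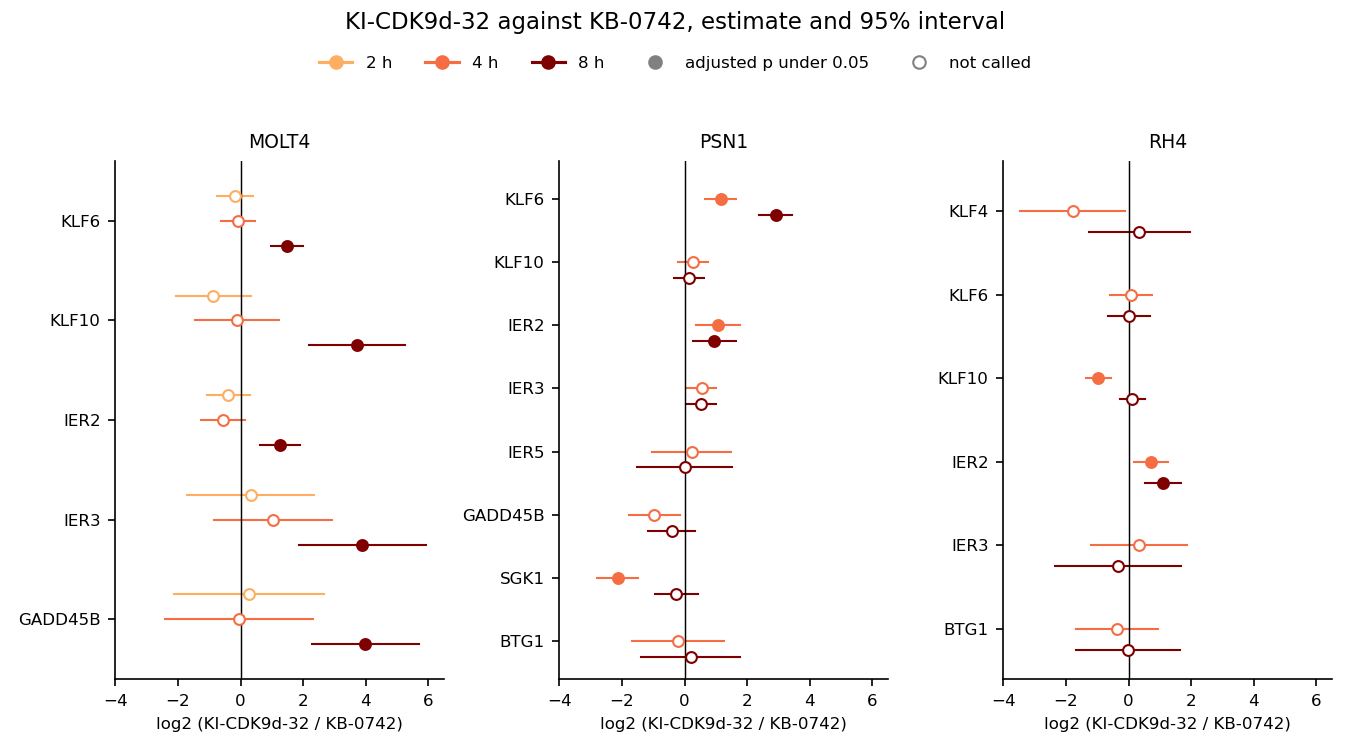
Log2 ratio of KI-CDK9d-32 over KB-0742 for each tested gene with its 95% interval, by line, times running down from 2 to 8 h, under TMM scaling; filled points are called at an adjusted p under 0.05. In MOLT4 the 8 h points lie right of 0, where spike-in scaling turns KLF6 and IER2 to the left, and in PSN1 KLF6 lies right of 0 and SGK1 at 4 h left of it.

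The change of a compound's effect between times was tested as the difference of the 2 contrasts with DMSO. In MOLT4 the effect of KI-CDK9d-32 at 8 h exceeded that at 4 h for KLF6 by 1.59 ± 0.39, for IER2 by 1.39 ± 0.44 and for GADD45B by 3.29 ± 1.10 (adjusted p = 0.0026, 0.027 and 0.038, edgeR), 3 of 5 genes where 5.15% of all genes were called higher and 12.5% in either direction. On the spike-in scale these were -0.30, -0.30 and 1.84, none of them called. In PSN1 the effect of KB-0742 on SGK1 was lower at 8 h than at 4 h by -1.97 ± 0.44 (adjusted p = 0.011, edgeR; 1.88% of all genes called). None of the 10 genes was called for the other changes between times, which were KI-CDK9d-32 between 2 and 4 h in MOLT4 (3.46% of all genes called) and PSN1 (0.016%) and between 4 and 8 h in PSN1 (0.016%) and RH4 (0%), and KB-0742 in MOLT4 between 2 and 4 h (3.15%) and between 4 and 8 h (17.8%) and in RH4 between 4 and 8 h (8.52%). At an unadjusted p under 0.05 these held 1, 1, 3, 1, 1, 1 and 0 of the tested genes. KLF6 in PSN1 differed by 1.32 ± 0.33 between 8 h and 4 h of KI-CDK9d-32 (not called, adjusted p = 0.17, edgeR). Among DMSO libraries of different times no gene of the 10 was called in any line (at most 0.00802% of all genes), and 1 (KLF6, PSN1, 4 h against 2 h) had an unadjusted p under 0.05.

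The response differed between lines for several of the genes, by a test of equal effect in the 3 lines over all 91 libraries. With KI-CDK9d-32 at 4 h the changes of IER2 were -1.52, 0.59 and -0.01 in MOLT4, PSN1 and RH4 (adjusted p = 0.0054, edgeR) and those of KLF10 were -1.35, 0.50 and 0.23 (adjusted p = 0.036; spike-in -2.45, -0.18 and -0.15), where 6.48% of all genes were called. At 8 h it differed between lines for KLF6 at 2.20, 1.98 and 0.68 (adjusted p = 0.0068), IER2 at -0.19, 1.47 and 0.44 (adjusted p = 0.0054) and IER3 at 1.97, 0.15 and -1.59 (adjusted p = 0.0034), beside 20.1% of all genes. On the spike-in scale the 8 h values were -0.83, 0.99 and -0.21 for KLF6, -3.13, 0.45 and -0.40 for IER2, and -0.86, -0.83 and -2.45 for IER3, so that MOLT4 had the highest KLF6 value of the 3 lines under TMM and the lowest on the spike-in scale. With KB-0742 at 4 h KLF10 differed at -1.45, 0.23 and 1.195 (adjusted p = 0.00088; 5.84% of all genes called; spike-in -2.57, -0.69 and 0.14).

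At 8 h of KB-0742 the lines differed for KLF10 at -3.68, 0.17 and 0.79 in MOLT4, PSN1 and RH4 (adjusted p = 3.1e-07, edgeR), KLF6 at 0.59, -0.91 and 0.63 (adjusted p = 0.0027), IER2 at -1.57, 0.55 and -0.72 (adjusted p = 0.00057) and GADD45B at -2.91, 0.60 and 1.16 (adjusted p = 0.0008), beside 18.2% of all genes. Their spike-in values were -4.87, -0.75 and -0.75 for KLF10, -0.72, -1.75 and -0.896 for KLF6, -2.86, -0.45 and -2.21 for IER2, and -4.06, -0.24 and -0.35 for GADD45B, all of them negative. On that scale IER2 remained called with KI-CDK9d-32 at 4 h and 8 h and with KB-0742 at 8 h, KLF6 with KI-CDK9d-32 at 8 h, and KLF10 and GADD45B with KB-0742 at 8 h. IER3 with KI-CDK9d-32 at 8 h, KLF10 at 4 h with both compounds and KLF6 with KB-0742 at 8 h were not called there, which added KLF10 and IER5 with KI-CDK9d-32 at 8 h (adjusted p = 0.000998 and 0.0318, edgeR).

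**Figure D5:**
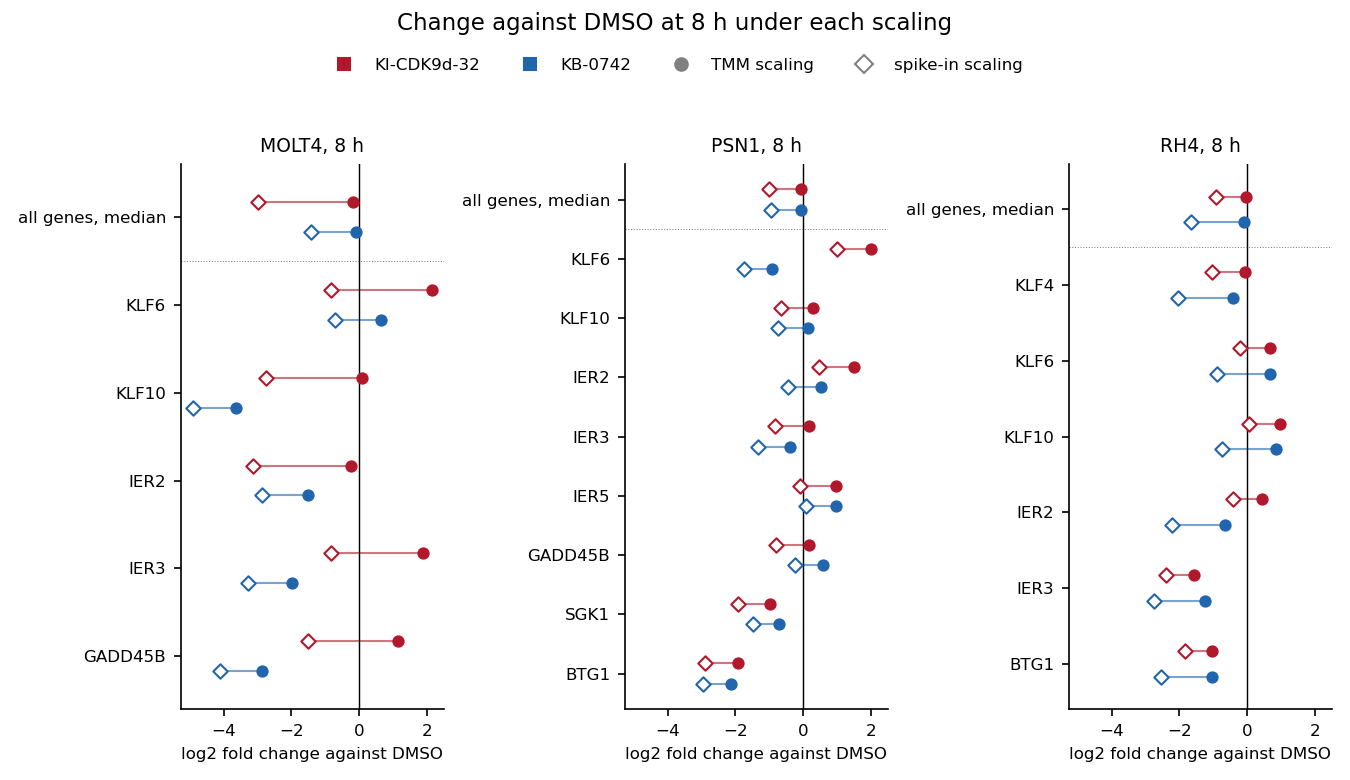
Log2 fold change against DMSO at 8 h of each tested gene and, in the top line, the median of all genes, with TMM scaling (circles) and spike-in scaling (diamonds), KI-CDK9d-32 above KB-0742. In MOLT4 the median of all genes moves to -2.99 with KI-CDK9d-32 and KLF6 moves between 2.15 (TMM) and -0.83 (spike-in), while in PSN1 KLF6 stays right of 0 with KI-CDK9d-32 under both.

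Related genes were counted for the same comparisons, as lists chosen from general knowledge. Of 41 other immediate-early genes, 22 were tested in MOLT4. With KI-CDK9d-32 none were higher and 13 lower at 2 h (median -1.83), and 1 was higher and 15 lower at 4 h (median -1.55). The medians over all genes were -0.02 and -0.11, and 9.98% and 32.6% of all genes were called. With KB-0742 1 was higher and 5 lower at 2 h (median -0.25), and 4 were higher and 1 lower at 4 h (median 0.13, and -1.20 on the spike-in scale). Of all genes, 26.1% and 35.8% were called there. The share of the list called with KB-0742 was near that of all genes at 2 h and below it at 4 h. At 4 h of KI-CDK9d-32 the largest changes were in DUSP1, a MAP kinase phosphatase (-4.76 ± 0.88), ID3, an inhibitor of E proteins (-3.68 ± 0.39), and the nuclear receptor NR4A1 (-3.55 ± 1.14), all called by edgeR. In PSN1 at 4 h of KI-CDK9d-32, 1 of 35 tested was higher and 5 were lower (median -0.40, against -0.01 over all genes), led by DUSP2 (-2.53 ± 0.56), ZFP36L2 (-2.04 ± 0.61) and RND3 (-1.57 ± 0.25). In RH4 none of 23 were higher and 6 lower (median -0.59, against -0.01 over all genes), led by DUSP1 (-1.49 ± 0.34), ID2 (-1.34 ± 0.39) and MYC (-1.11 ± 0.24). There KB-0742 at 4 h gave 8 higher and 2 lower (median 0.14, and -0.87 on the spike-in scale). At 4 h, 7.36% of all genes were called with KI-CDK9d-32 in PSN1 and 5.36% in RH4, and 31.6% with KB-0742 in RH4.

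Among 13 other KLF family genes, few passed the filter, and with KI-CDK9d-32 at 4 h KLF16 was lower (-2.59 ± 0.76) and KLF12 higher (1.12 ± 0.28) of 5 tested in MOLT4 (32.6% of all genes called), KLF3 was lower (-1.999 ± 0.41) of 4 in PSN1 (7.36% of all genes), and none of 4 was called in RH4 (5.36% of all genes). The medians of these genes were -1.01, -0.76 and -0.54, beside -0.11, -0.01 and -0.01 over all genes, which are the background of the next lists too. Of 10 paralogs of the IER, GADD45, SGK and BTG genes, TOB1, BTG2 and BTG3 were lower in MOLT4 (-2.74 ± 0.47, -2.04 ± 0.65 and -1.01 ± 0.23; 5 tested), TOB1 and TOB2 in PSN1 (-1.09 ± 0.24 and -1.003 ± 0.31; 4 tested), and BTG2 and TOB1 in RH4 (-1.55 ± 0.47 and -0.95 ± 0.18; 6 tested), with list medians of -1.01, -0.66 and -0.76. TOB and BTG proteins share the antiproliferative fold that recruits the CCR4-NOT deadenylase. Among T-cell genes that depend on KLF2 in mature T cells, S1PR1, a receptor for exit from lymphoid tissue, was lower with KI-CDK9d-32 at 4 h (-2.48 ± 0.38) in MOLT4, where KLF2 itself was near or below detection. S1PR1 was called lower in RH4 too, which is not a T-cell line (-0.74 ± 0.22). This 1 gene does not stand for its list, of which another gene is not reported here.

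Glucocorticoid-induced genes, the class to which SGK1 belongs, were lower with KI-CDK9d-32 at 4 h in 4 of 5 tested in MOLT4, 1 of 6 in PSN1 and 3 of 5 in RH4, with none higher and medians of -1.71, -0.69 and -0.79, where 32.6%, 7.36% and 5.36% of all genes were called. DDIT4, an inhibitor of mTORC1, was among them in every line (-3.15 ± 0.30, -1.33 ± 0.33 and -1.84 ± 0.35), and so was the NF-kB inhibitor NFKBIA in MOLT4 (-1.71 ± 0.25) and RH4 (-0.79 ± 0.20). Of FOXO targets, the class that holds BTG1, 1 of 5 was higher and 1 lower in MOLT4 (TXNIP 0.81 ± 0.24, with a spike-in value of -0.24, and BCL2L11 -1.55 ± 0.42), 2 of 6 were lower in PSN1 (BCL6 -1.33 ± 0.40 and TXNIP -0.92 ± 0.20) and none of 5 was called in RH4, with medians of -0.74, -0.62 and -0.41, and the MOLT4 share is near that of all genes. CDK9 mRNA itself was called with KB-0742 at 8 h only, higher in MOLT4 (1.16 ± 0.30; spike-in -0.17) and RH4 (1.48 ± 0.31; spike-in -0.06), and mRNA does not show the protein that KI-CDK9d-32 removes.

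Genes whose pattern over the 23 groups was most like a member's were looked up among 9338 genes tested in all lines, by Pearson correlation of group means centred within each line. For KLF6 they were the unnamed ENSG00000264207 (r = 0.81) and PAK6 (0.79), and for KLF10 SERPINH1 (0.82) and OSTM1 (0.81). For IER2 they were ZNF250 (0.78) and ZFP36 (0.76), and for IER3 SMC4 (0.81) and CDKN1A (0.80). The groups share lines, libraries and depth, so these values are descriptions.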

How the data were processed

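RNA-seq libraries of MOLT4, PSN1 and RH4 cells were prepared, per the labels' protocols, from lysates that received equal spike-in RNA (ERCC and SIRV), by a reduced-volume SMART-seq2 and Nextera XT protocol that keeps no strand and carries no molecular identifiers. The submitters' processing notes name Salmon and hg38; its version and the annotation are not given in the sources used here. The authors deposited 2 kinds of value per gene: expected counts, used here as deposited, and log2-transformed TPM with 1 added. Per line, 62856 entries held 62710 genes, 99 spike-ins and 47 pseudoautosomal Y entries that were left out.

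Groups combine line, compound and time as labelled. The expected counts were fitted per line with all its groups in edgeR 4.0.16 (R 4.3.3), after filterByExpr (minimum count 10) and TMM scaling, with robust quasi-likelihood F tests and Benjamini-Hochberg adjustment over all genes (11664, 12471 and 12058) at 0.05. The standard error is the log2 fold change over the root of F. Effects between lines were tested in 1 fit of 91 libraries. CPM are counts over the TMM-scaled library size, and TPM are the deposited log2 values turned back and rescaled to genes. TMM assumes that most genes keep their level, so spike-in scaling was run throughout. Other alternatives were DESeq2 1.42.0, its size factors, no filter, 2 groups only, a replicate block, limma 3.58.1 on log2(TPM + 1), and each library left out. The fits were tested on simulated data. In PSN1 at 2 and 4 h, every pair of same-numbered libraries deviated together (correlations of 0.105 to 0.329), a pairing read from the data as the labels name none, so block values stand beside results whose call they change. Ratios of sparse counts have exact 95% intervals, with a floor of 3 counts over a group. The genes, lists and tests were chosen with earlier results of these data known. All 10 genes are named throughout, and of each other list up to 3 called genes whose change at 4 h of KI-CDK9d-32 was largest in a line. Promoters are RefSeq's (GRCh38.p14), positions GENCODE release 29 (GRCh38). 1 gene of the KLF2-dependent list is not reported here.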

Additional observations from a re-analysis of the deposited data

Results flagged for a closer look

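Of 140 groups of 4 libraries looked at over the 10 genes, 11 (7.86%) had 1 library set apart from the other 3 by Dixon's test at the 95% level, which chance alone gives in about 1 group in 20. In MOLT4, IER2 was 13.1 CPM in KB-0742 replicate 4 at 2 h, against 5.97 to 6.78 CPM in the others. IER3 in MOLT4 was 2.17 CPM in KI-CDK9d-32 replicate 1 at 2 h, against 0 to 0.342 CPM, and KLF10 was 4.57 CPM in KI-CDK9d-32 replicate 2 at 4 h, against 1.11 to 1.50 CPM. In PSN1 with KB-0742, IER2 was 24.4 CPM in replicate 3 at 4 h (others 98.6 to 100.1 CPM), KLF10 was 15.9 CPM in replicate 1 at 4 h (others 27.2 to 27.7 CPM) and KLF6 was 6.80 CPM in replicate 4 at 8 h (others 19.3 to 21.1 CPM). Also in PSN1, KLF6 was 76.7 CPM in KI-CDK9d-32 replicate 1 at 4 h (others 66.1 to 66.5 CPM), and SGK1 was 36.6 CPM in DMSO replicate 3 at 2 h (others 29.1 to 29.6 CPM). In RH4, KLF10 was 34.2 CPM in KB-0742 replicate 4 at 4 h (others 52.0 to 55.2 CPM) and 25.8 CPM in DMSO replicate 3 at 8 h (others 17.2 to 18.6 CPM), and KLF4 was 2.32 CPM in KI-CDK9d-32 replicate 2 at 4 h (others 0.297 to 0.612 CPM). The cause was not tested for any of them.

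Effects that differed between times by the test of the difference were those of KI-CDK9d-32 in MOLT4 between 4 and 8 h on KLF6 (1.59), IER2 (1.39) and GADD45B (3.29), and that of KB-0742 in PSN1 on SGK1 (-1.97), all as log2 differences. Effects that differed between the 3 lines were, with KI-CDK9d-32, those on IER2 (adjusted p = 0.00537) and KLF10 (0.0363) at 4 h and on KLF6 (0.00683), IER2 (0.00539) and IER3 (0.00336) at 8 h, by edgeR. With KB-0742 they were those on KLF10 at 4 h (adjusted p = 0.000884) and on KLF6 (0.00274), KLF10 (3.1e-07), IER2 (0.000573) and GADD45B (0.000799) at 8 h.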

How the results depend on the processing

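Counts of the 10 genes called are given here beside the reported count in parentheses. With only the 2 groups compared in the fit, KB-0742 against DMSO called 1 (2) in MOLT4 at 2 h, 2 (4) in MOLT4 at 8 h and 1 (2) in PSN1 at 8 h, KI-CDK9d-32 against DMSO called 2 (1) in MOLT4 at 4 h, 1 (2) in MOLT4 at 8 h and 2 (1) in PSN1 at 4 h, and KI-CDK9d-32 against KB-0742 called 2 (5) in MOLT4 and 1 (2) in PSN1 at 8 h. DESeq2 called 3 (1) in MOLT4 at 4 h with either compound, and with DESeq2 size factors in edgeR all calls and directions were as reported. Without a filter the counts were 2 (1) with KB-0742 in MOLT4 at 4 h, 1 (2) with KI-CDK9d-32 in MOLT4 at 8 h, 3 (1) in PSN1 and 1 (0) in RH4 at 4 h, and 1 (2) for the 2 compounds in PSN1 at 8 h.

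With limma on log2(TPM + 1), KB-0742 called 5 (2), 4 (1), 5 (2), 4 (2) and 3 (1) in MOLT4 at 2 and 4 h, PSN1 at 4 and 8 h and RH4 at 8 h, KI-CDK9d-32 called 3 (1) in MOLT4 and in PSN1 at 4 h and 1 (0) and 2 (1) in RH4 at 4 and 8 h, and KI-CDK9d-32 against KB-0742 called 3 (5) in MOLT4 at 8 h, 1 (2) in PSN1 at 8 h, and 1 (2) and 2 (1) in RH4 at 4 and 8 h. Directions of called values turned there for KLF6 with KB-0742 (-0.26) and KLF10 with KI-CDK9d-32 (-0.83) in MOLT4, and for KLF10 with KB-0742 in RH4 (-0.17), all at 8 h.

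With spike-in scaling, KB-0742 called 3 (1) in MOLT4 at 4 h, 6 (2) and 4 (2) in PSN1 at 4 and 8 h and 6 (1) in RH4 at 8 h, and KI-CDK9d-32 called 3 (1) in MOLT4 at 4 h, 1 (2) and 3 (1) in PSN1 at 2 and 4 h and 2 (1) in RH4 at 8 h. The 2 compounds differed in 2 (5) genes in MOLT4 and 1 (2) in PSN1 at 8 h, and in 1 (2) and 2 (1) in RH4 at 4 and 8 h. Changes between times gave 0 (3) in MOLT4 and 0 (1) in PSN1, and those between lines at 4 h 1 (2) for KI-CDK9d-32 and 0 (1) for KB-0742. Among values called on either scale, directions turned against DMSO for KLF6 (-0.83), KLF10 (-2.75) and IER3 (-0.82) in MOLT4 and IER3 (-0.83) in PSN1 with KI-CDK9d-32 at 8 h, and for KLF6 in MOLT4 at 8 h (-0.73) and in RH4 at 4 and 8 h (-1.10 and -0.89) and KLF10 in RH4 at 8 h (-0.75) with KB-0742. Between the compounds in MOLT4 at 8 h, KLF6 (-0.10) and IER2 (-0.27) turned, as did their changes between 4 and 8 h of KI-CDK9d-32 (-0.30 and -0.30). By construction this scaling sets each gene against the spike-in RNA, added in equal amount to each lysate, and so reads that gene's RNA per lysate. Other causes were not tested.

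With the replicate number as a replicate block, KI-CDK9d-32 called 3 (1) against DMSO and 5 (3) against KB-0742 in PSN1 at 4 h, and 3 (2) for KB-0742 against DMSO (SGK1) and for the compounds (IER3) in PSN1 at 8 h, and no call was lost. Same-numbered libraries deviated together (correlation over 0.1) in 11 of 34 pairs in MOLT4, 25 of 28 in PSN1 and 12 of 24 in RH4, and every pair did so in the PSN1 comparisons at 2 and 4 h only, so the numbers were taken as pairs there and nowhere else.

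Leaving out 1 library at a time gave counts with KB-0742 of 2 to 2, 0 to 2 and 3 to 4 in MOLT4 at 2, 4 and 8 h, 1 to 3 and 1 to 2 in PSN1 at 4 and 8 h, and 1 to 2 at both times in RH4. With KI-CDK9d-32 they were 2 to 3, 1 to 2 and 1 to 2 in MOLT4, 0 to 2, 0 to 2 and 2 to 3 in PSN1, and 0 to 0 and 1 to 1 in RH4. Between the compounds they were 0 to 0, 0 to 0 and 4 to 5 in MOLT4, 2 to 3 and 1 to 2 in PSN1, and 1 to 2 and 1 to 1 in RH4. No direction of a called value turned in these fits, where 54 values lost and 13 gained a call or moved with the count. Depth limits the sparse genes: KLF2 in all lines, KLF4 outside RH4, IER5, SGK1 and BTG1 in MOLT4, and IER5, GADD45B and SGK1 in RH4 rest on a few counts per library.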
